A study of Homo sapiens with 12 samples.

Results

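Class I antigen presentation was followed through 9 genes in REC1, a human cell line established from mantle cell lymphoma. The genes were HLA-B, HLA-C, HLA-E, B2M, TAP1, TAP2, TAPBP, NLRC5 and PSMB9, chosen by their Ensembl identifiers among the 60483 genes of the deposited count table, and all 9 were found there and passed the filter on low counts. Class I molecules consist of a heavy chain (here HLA-B, HLA-C and HLA-E) bound to the light chain beta-2 microglobulin (B2M), and they show peptides from inside the cell to cytotoxic T cells and natural killer cells. Peptides are cut by the proteasome, of which PSMB9 is an interferon-inducible catalytic subunit, carried into the endoplasmic reticulum by the TAP1-TAP2 transporter, and loaded with the help of tapasin (TAPBP). NLRC5 is a transactivator of class I promoters, and reduced class I expression is a known trait of many B-cell lymphomas.

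REC1 cells were exposed to DMSO (the vehicle), to ibrutinib, to SPX5551, or to both agents (the combination), and each treatment was sampled at 4, 8 and 12 h, giving 12 libraries. Ibrutinib is a covalent inhibitor of the B-cell receptor kinase BTK, and SPX5551, called pol5551 in the column headers, is the inhibitor of the chemokine receptor CXCR4 that the study's title refers to. Doses are not stated. One cell line was used, with 1 library per treatment and time, so a treatment was replicated by its 3 times (n = 3) and a time by its 4 treatments (n = 4), and a p-value reflects no spread other than that among these libraries. Bulk RNA was measured, so fewer cells of a type and less RNA per cell cannot be told apart.

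Labels disagree on the columns: titles and treatments fit the headers, but the free-text descriptions assign each column to a sample of a different treatment. Results are given by header. Pairing by description instead, 41 of the 72 differences between treatments or exposures (9 genes in 8 comparisons) change sign, and calls of these 9 genes made or lost there are given beside the comparison. Libraries held 19336303 to 28934030 counts. All 6 B-cell markers examined exceeded 1 CPM (counts per 1000000 counts of a library) in median, and CCND1, the cyclin deregulated in mantle cell lymphoma, had 1390 to 1710 CPM. SOX11 had 4.32 to 7.33 CPM and CD5 at most 0.652 CPM. Of 5 T-cell markers 2 exceeded 1 CPM in median, CD3D (2.63 to 3.90 CPM) and CD3E (2.61 to 7.29 CPM), while CD2, CD4 and CD8A had at most 0.401 CPM, and the summed T-cell markers overlapped between all treatments (6.06 to 10.4 CPM). The 5 myeloid markers summed to 1.02 to 2.07 CPM, with FCGR3A at 0 counts throughout. Of 6 stromal, endothelial and epithelial markers, PECAM1 (18.5 to 44.7 CPM) and KRT18 (21.6 to 38.7 CPM) were the highest, and the sum was 49.7 to 88.1 CPM with overlap between all treatments. Libraries also differed by transcript length: Spearman's rho across genes, of length with deviation from the gene's average, ran from -0.48 to 0.50, and all 3 ibrutinib libraries had a positive rho and all 3 SPX5551 libraries a negative one. Genes are not independent replicates, and this rho is a description.

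Promoter windows, from 250 bases before to 50 after a RefSeq transcript start (GRCh38.p14), were found for 7 of the 9 genes. The 5 printed here belong to the 4 genes that passed a test in at least 1 comparison and to B2M, which among the 9 genes followed PSMB9 most closely. Capitals mark matches, on either strand, to GAAANNGAA (the core of the interferon-stimulated response element, bound by IRF factors) and to GGGANTNNC (a loose form of the kappaB site).

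HLA-B, chr6:31357130-31357429, minus strand: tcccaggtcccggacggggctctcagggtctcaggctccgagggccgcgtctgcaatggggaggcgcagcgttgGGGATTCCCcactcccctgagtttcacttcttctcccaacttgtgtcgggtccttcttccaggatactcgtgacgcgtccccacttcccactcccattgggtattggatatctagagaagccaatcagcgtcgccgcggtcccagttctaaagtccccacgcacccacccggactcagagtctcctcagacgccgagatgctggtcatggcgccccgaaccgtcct
B2M, chr15:44711267-44711566, plus strand: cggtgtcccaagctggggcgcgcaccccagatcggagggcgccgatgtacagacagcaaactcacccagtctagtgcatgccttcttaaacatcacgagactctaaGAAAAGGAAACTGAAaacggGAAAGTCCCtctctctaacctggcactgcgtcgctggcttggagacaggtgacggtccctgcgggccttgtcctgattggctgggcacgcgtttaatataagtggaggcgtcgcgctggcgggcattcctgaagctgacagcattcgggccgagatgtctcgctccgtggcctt
TAP1, chr6:32853655-32853954, minus strand: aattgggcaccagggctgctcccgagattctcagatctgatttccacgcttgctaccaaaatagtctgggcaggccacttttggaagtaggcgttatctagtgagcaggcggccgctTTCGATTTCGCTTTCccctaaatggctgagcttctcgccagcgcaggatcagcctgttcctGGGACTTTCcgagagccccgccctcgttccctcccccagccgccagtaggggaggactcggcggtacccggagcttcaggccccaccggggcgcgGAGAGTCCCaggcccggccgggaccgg
PSMB9, chr6:32853942-32854241, plus strand: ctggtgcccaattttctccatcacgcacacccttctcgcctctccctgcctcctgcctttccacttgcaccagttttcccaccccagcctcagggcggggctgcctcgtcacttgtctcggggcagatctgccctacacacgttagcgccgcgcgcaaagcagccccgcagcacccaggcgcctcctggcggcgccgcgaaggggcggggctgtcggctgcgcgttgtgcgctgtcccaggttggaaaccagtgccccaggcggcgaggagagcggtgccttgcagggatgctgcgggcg
TAPBP, chr6:33314029-33314328, minus strand: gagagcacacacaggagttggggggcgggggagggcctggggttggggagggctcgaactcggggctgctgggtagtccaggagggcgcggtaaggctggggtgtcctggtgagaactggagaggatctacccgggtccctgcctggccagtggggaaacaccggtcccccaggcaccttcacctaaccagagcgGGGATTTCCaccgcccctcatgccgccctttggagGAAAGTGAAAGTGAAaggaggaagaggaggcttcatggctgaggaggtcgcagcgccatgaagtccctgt

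TAP1 and PSMB9 start from opposite strands of 1 stretch, and their windows share 13 bases. The capitals fall on both motifs in B2M, TAP1 and TAPBP, on the kappaB-like letters alone in HLA-B, and nowhere in the PSMB9 window. TAP1 has another window further into the gene (chr6:32852712-32853011, not printed), which holds neither motif. Of the 8 windows of the 7 genes, 4 held an interferon-response match and 5 a kappaB-like match, against 8.1% and 15.4% of 35116 windows of the same length. CCAAT, the NF-Y motif, was found in 5 of the 8 and in 34.6% of all windows, and TGACG, a CREB half-site of the kind found in X2 boxes, in 5 of the 8 and in 24.6% of all windows. Motifs were searched on both strands without mismatches, overlapping matches included, and a match describes letters only.

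Levels of the 9 genes spanned more than 2 orders of magnitude. Per kilobase of transcript, the light chain B2M had the highest median over the 12 libraries, at 268 CPM per kb. HLA-C (54.2), TAPBP (44.4) and PSMB9 (40.2 CPM per kb) followed. HLA-B (11.5), TAP1 (10.9) and TAP2 (10.0 CPM per kb) lay lower and close together, NLRC5 had 3.09 CPM per kb, and HLA-E had 1.01 CPM per kb from only 45 to 74 counts in a library. The ratio of B2M CPM to the summed CPM of the 3 heavy chains, not scaled by length, ran from 3.23 to 5.07 over the libraries. Of the 9 genes, HLA-B varied most over the libraries, with a coefficient of variation of 24.1%, and TAP2 varied least, with 9.54%. Over the 12300 genes above 1 CPM the median coefficient was 16.8%.

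Some of these levels may rest on reads shared between genes. In GENCODE release 29 the gene model of TAP1 lies wholly within that of PSMB9 on the opposite strand (8770 bases), and the model of HLA-B overlaps that of HLA-C by 2640 bases on the same strand. These are overlaps from gene start to gene end, introns included, and the overlap of exons was not computed. The library kit keeps strand, but whether counting used it is not given, so reads from TAP1 and PSMB9 may not have been told apart. Among stretches of 50 bases in the reference transcripts, 2.5% of those in HLA-B, 6.7% in HLA-C and 4.7% in HLA-E also occur in another class I heavy chain. REC1's own alleles differ from the reference in unknown ways, and what that does to HLA levels was not tested.

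**Figure D1:**
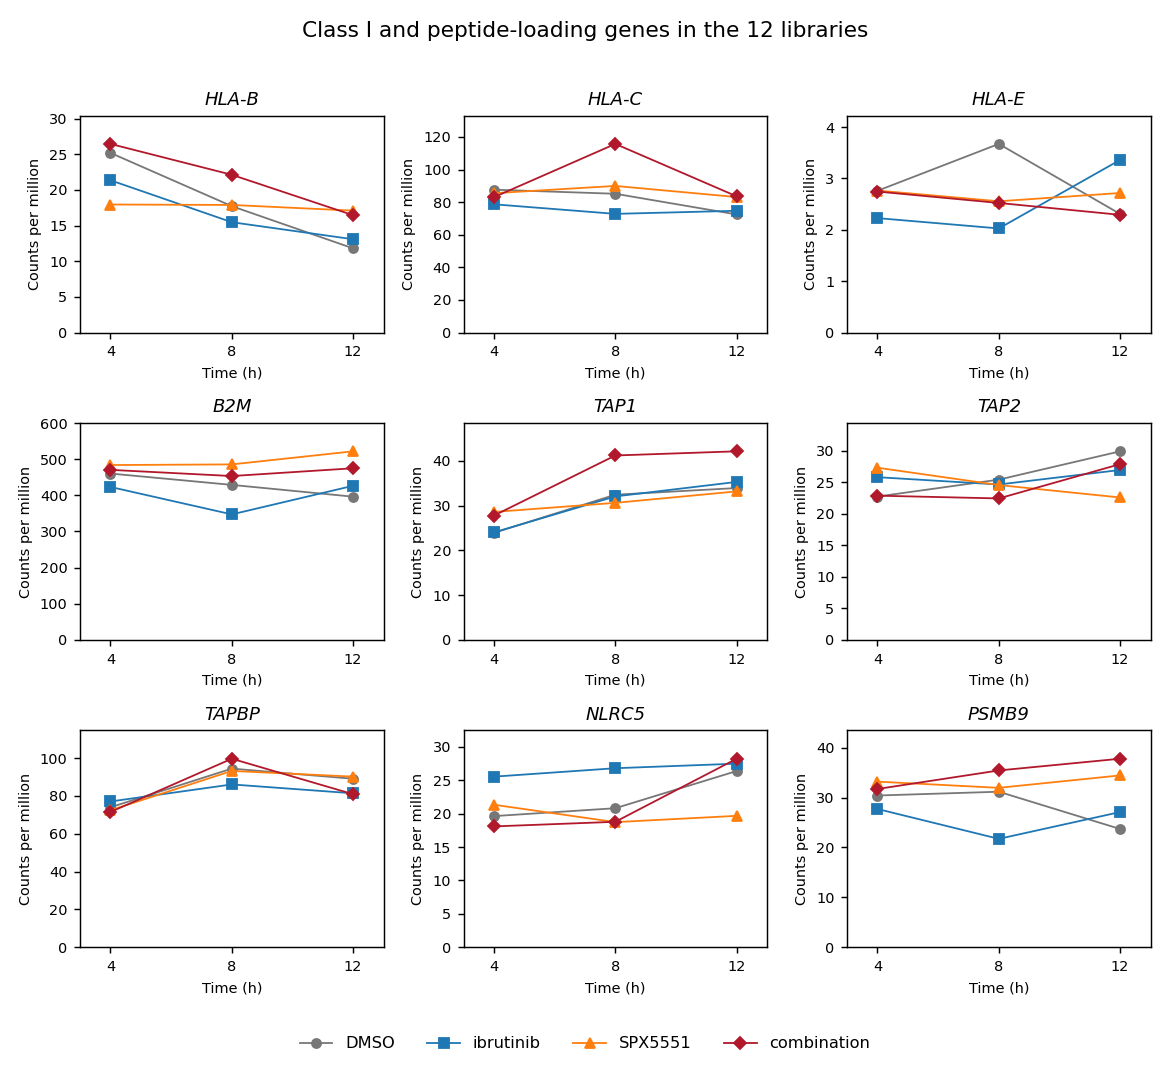
CPM of each class I gene (vertical axes, from 0) against time in hours, 1 point per library and 1 line per treatment. HLA-B is lower at 12 h than at 4 h in each treatment, TAP1 is higher, and PSMB9 in the SPX5551 and combination libraries lies above all others. CPM here is without the TMM scaling used for the tests, under which PSMB9 of these groups overlaps with DMSO.

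The heavy chains came first. HLA-B (ENSG00000234745, chromosome 6, 31269491 to 31357188, minus strand, hg38), a classical class I heavy chain, was first read in DMSO, where 4, 8 and 12 h gave 25.2, 17.7 and 11.8 CPM. With ibrutinib the values were 21.3, 15.5 and 13.1 CPM, with SPX5551 17.9, 17.9 and 17.1 CPM, and with the combination 26.4, 22.1 and 16.4 CPM. The 4 libraries at 4 h (17.9 to 26.4 CPM) lay above the 4 at 12 h (11.8 to 17.1 CPM). SPX5551 libraries stayed within 1 CPM of each other while the other treatments dropped. Whether the course differed between treatments was not tested.

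HLA-C (ENSG00000204525, chromosome 6, 31268749 to 31272130, minus strand), another classical heavy chain, stood at 87.6, 85.1 and 72.4 CPM in the DMSO libraries, in the same order of times. The ibrutinib libraries had 78.7, 72.8 and 74.7 CPM, the SPX5551 libraries 85.5, 89.9 and 83.1 CPM, and the combination libraries 83.0, 116 and 83.5 CPM. The 8 h combination library stood above the other 11, whose range was 72.4 to 89.9 CPM. HLA-E (ENSG00000204592, chromosome 6, 30489467 to 30494205, plus strand), a nonclassical chain read by natural killer cell receptors, ranged from 2.03 to 3.67 CPM. Its extremes both came at 8 h, from ibrutinib (95% Wilson interval 1.56 to 2.63 CPM, counting error only) and DMSO (2.93 to 4.61 CPM), and its treatment groups overlapped in every pair.

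B2M (ENSG00000166710, chromosome 15, 44711487 to 44718877, plus strand), the light chain that all class I heavy chains share, stood at 460.3, 429 and 396 CPM in the DMSO libraries at 4, 8 and 12 h. Ibrutinib libraries had 423, 347 and 427 CPM, SPX5551 libraries 484, 486 and 522 CPM, and combination libraries 470.5, 453 and 475 CPM. In order of the mean, B2M had 399 ± 44.8 CPM with ibrutinib (SD, n = 3), 429 ± 32.0 CPM in DMSO, 466 ± 11.4 CPM with the combination and 497 ± 21.4 CPM with SPX5551. SPX5551 values lay above all others, and those of ibrutinib and DMSO overlapped.

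PSMB9 (ENSG00000240065, chromosome 6, 32844136 to 32859585, plus strand), the immunoproteasome subunit, stood at 30.4, 31.2 and 23.7 CPM in the DMSO libraries at 4, 8 and 12 h. Ibrutinib libraries had 27.7, 21.7 and 27.1 CPM, SPX5551 libraries 33.2, 31.9 and 34.4 CPM, and combination libraries 31.7, 35.4 and 37.8 CPM. The means were 25.5 ± 3.29 CPM with ibrutinib (SD, n = 3), 28.4 ± 4.11 CPM in DMSO, 33.2 ± 1.25 CPM with SPX5551 and 35.0 ± 3.06 CPM with the combination. Neighbours in this order overlapped, except that SPX5551 lay above DMSO throughout. With libraries scaled by TMM, as they were for the tests, SPX5551 and DMSO overlapped too (32.3 CPM with SPX5551 at 8 h, 32.4 CPM in DMSO at 4 h).

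TAP1 (ENSG00000168394, chromosome 6, 32845209 to 32853978, minus strand), one chain of the peptide transporter, stood at 23.9, 32.5 and 33.9 CPM in the DMSO libraries at 4, 8 and 12 h. It had 24.0, 32.1 and 35.3 CPM with ibrutinib, 28.6, 30.6 and 33.2 CPM with SPX5551, and 27.8, 41.2 and 42.2 CPM with the combination. All 4 libraries at 4 h lay below the 8 later ones, and the 8 h and 12 h combination libraries were the highest. TAP2 (ENSG00000204267, chromosome 6, 32821833 to 32838780, minus strand), the partner chain, ranged from 22.4 to 29.9 CPM, and its groups overlapped in every pair of treatments and of times.

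TAPBP (ENSG00000231925, chromosome 6, 33299694 to 33314387, minus strand), which bridges TAP and the heavy chain, stood at 74.0, 94.5 and 89.1 CPM in the DMSO libraries at 4, 8 and 12 h. Ibrutinib libraries had 77.1, 86.1 and 81.4 CPM, SPX5551 libraries 72.5, 93.2 and 90.2 CPM, and combination libraries 71.5, 99.7 and 80.9 CPM. Each treatment had its highest TAPBP value at 8 h and its lowest at 4 h. NLRC5 (ENSG00000140853, chromosome 16, 56989485 to 57083531, plus strand), the transactivator, stood at 19.6, 20.8 and 26.4 CPM in the DMSO libraries. It had 25.5, 26.8 and 27.5 CPM with ibrutinib, 21.3, 18.7 and 19.7 CPM with SPX5551, and 18.1, 18.8 and 28.2 CPM with the combination. The 12 h combination library was the highest of all for NLRC5 in unscaled CPM, and ibrutinib had the highest group mean, 26.6 ± 0.984 CPM (SD, n = 3). After TMM scaling that combination library had 25.8 CPM, below the 12 h ibrutinib library at 26.8 CPM.

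Ibrutinib alone was compared with DMSO first, to see what BTK inhibition did to class I transcripts. None of the 9 genes passed edgeR's quasi-likelihood test at an adjusted p of 0.05, where 0.104% of the 14412 genes tested did. None had an unadjusted p under 0.05, which 1588 genes had over all. DESeq2 and limma-trend on the deposited log2 values also called 0 of the 9. The median log2 fold change was -0.14, and 8 of the 9 estimates were below 0. Over all genes tested the median was 0.015, and 52.9% of the estimates were positive. Transcript length moved with this difference (rho = 0.44 over 14316 genes). B2M had a log2 difference of -0.14 ± 0.097 (SE, n = 3), with a 95% interval from -0.35 to 0.06. NLRC5 was the 1 gene with a positive estimate, 0.23 ± 0.12, with an interval from -0.01 to 0.48 and an adjusted p of 0.457 (edgeR). With a smooth trend on length taken out of each library, B2M was at -0.06 ± 0.072 and NLRC5 at 0.10 ± 0.097. The signs of all 9 genes stayed the same. CPM of the groups overlapped for all 9 genes, against 6.15% of all genes with no overlap.

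SPX5551 alone was compared with DMSO next. No class I gene passed (edgeR; 0% of all genes did, and 1200 had an unadjusted p under 0.05), 0 of the 9 had an unadjusted p under 0.05, and DESeq2 and limma-trend called 0. The median of the 9 log2 fold changes was -0.01. B2M and PSMB9 had no overlap between the groups in unscaled CPM, 2 of 9 against 7.33% of all genes, and PSMB9 overlapped after TMM scaling. The log2 differences of B2M and PSMB9 were 0.20 ± 0.097 (SE, n = 3; 95% interval -0.01 to 0.40; adjusted p = 0.608, edgeR) and 0.20 ± 0.13 (-0.06 to 0.47; adjusted p = 0.651). HLA-B differed by -0.01, with an interval from -0.33 to 0.31.

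With the combination relative to DMSO, many other genes changed (9.57% of all tested) but 0 of the 9 class I genes passed. The smallest adjusted p was 0.187 (edgeR), for TAP1 at 0.21 ± 0.097 (SE, n = 3). TAP1 was the 1 class I gene with an unadjusted p under 0.05, which 3539 of the 14412 genes tested had. DESeq2 and limma-trend called 0 of the 9. The median log2 fold change was 0.04, between -0.29 for HLA-E and 0.22 for PSMB9. PSMB9 alone had no overlap between the groups in unscaled CPM, where 13.1% of all genes had none, and it overlapped after TMM scaling.

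The combination was compared with ibrutinib alone to isolate what SPX5551 added. Again 0 of the 9 genes passed in edgeR, where 5.49% of all genes did. An unadjusted p under 0.05 was found for 5 of the 9 and for 3393 of the 14412 genes tested. The median log2 difference was 0.18. PSMB9 was nearest to the threshold, at 0.41 ± 0.13 (SE, n = 3; 95% interval 0.15 to 0.68; adjusted p = 0.0635), and higher in the combination at 4, 8 and 12 h. NLRC5 had the opposite sign, at -0.36 ± 0.12 (-0.61 to -0.12; adjusted p = 0.0771), with the 2 values close to each other at 12 h. HLA-B (0.34 ± 0.15), HLA-C (0.27 ± 0.11) and TAP1 (0.23 ± 0.097) had estimates above 0 and adjusted p-values of 0.174, 0.166 and 0.159. HLA-C, B2M and PSMB9 did not overlap between the groups in unscaled CPM, 3 of 9 against 14.5% of all genes. After TMM scaling HLA-C overlapped, with 76.5 CPM in the 12 h combination library and 80.4 CPM in the 4 h ibrutinib library.

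DESeq2 called 2 genes in that comparison, PSMB9 at 0.40 and NLRC5 at -0.38, and limma-trend called 0. Transcript length moved with this difference: across 14316 genes its rho with the log2 difference was -0.34, PSMB9 has the shortest transcript of the 9 (782 bases) and NLRC5 the longest (6822 bases). With a smooth trend on length taken out of each library, PSMB9 was at 0.25 ± 0.095 (adjusted p = 0.114, edgeR) and NLRC5 at -0.24 ± 0.095 (adjusted p = 0.135).

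Between the combination and SPX5551 alone, 0 of the 9 genes passed (7.24% of all genes did). Of the 9, 0 had an unadjusted p under 0.05, where 3821 genes had one over all, and DESeq2 and limma-trend called 0. The log2 differences ran from -0.16 for B2M to 0.20 for HLA-B, with a median of 0.01. B2M was lower in every combination library than in every SPX5551 library, 1 gene of 9 against 17.9% of all genes with no overlap, and its interval ran from -0.36 to 0.05. The interaction, which asks whether the 2 agents together differ from the sum of their single effects, was called for 0 of the 9 and for 0% of all genes in edgeR. There 845 genes had an unadjusted p under 0.05, none of them a class I gene, and DESeq2 called 2 genes over all and none of the 9. The largest class I estimate was 0.35 ± 0.21 for HLA-B, with an interval from -0.10 to 0.80. Paired by the descriptions, the combination versus SPX5551 called 3 class I genes in edgeR, B2M at 0.34 (adjusted p = 0.0345), NLRC5 at -0.40 (adjusted p = 0.0383) and PSMB9 at 0.40 (adjusted p = 0.046), and the interaction called PSMB9 at 0.62 (adjusted p = 0.0472). These comparisons share libraries and are not independent of each other.

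**Figure D2:**
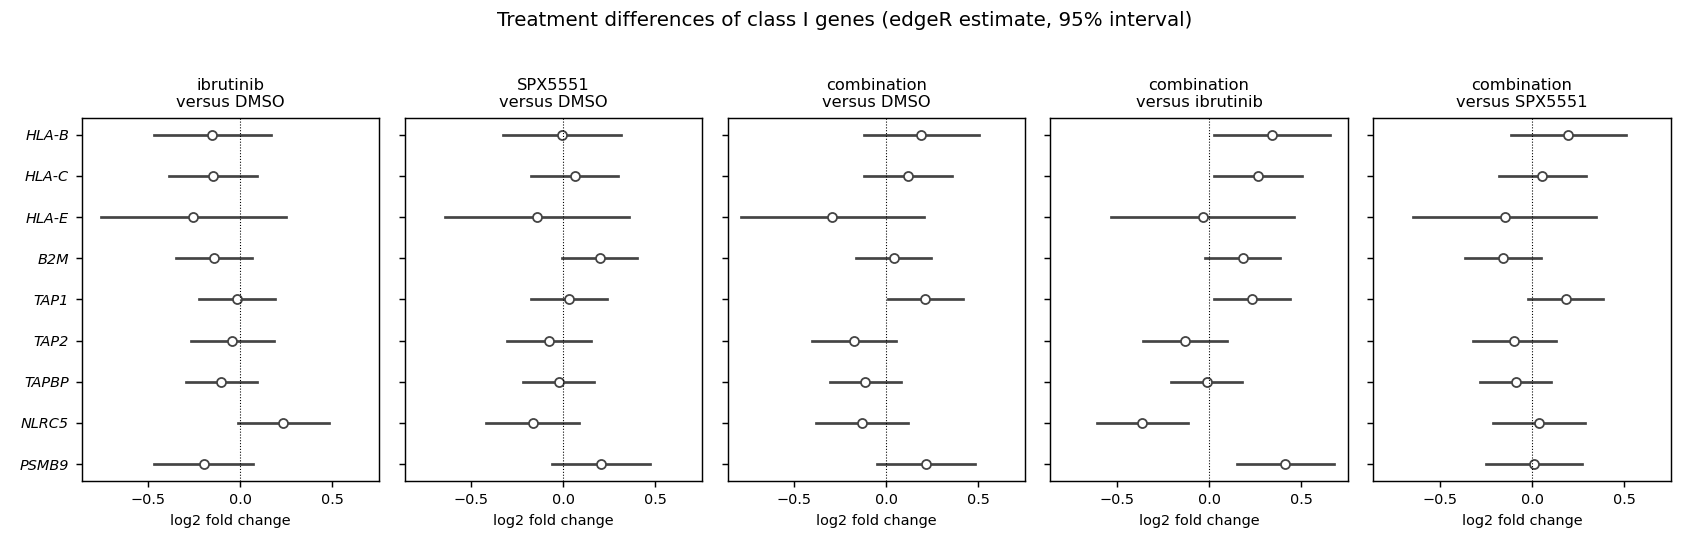
log2 fold change of each class I gene (points) with its 95% interval (lines) in 5 pairs of treatments, from edgeR with n = 3 libraries per treatment. All points are open, since no adjusted p was under 0.05. The intervals of PSMB9 and NLRC5 in the combination versus ibrutinib lie on opposite sides of 0.

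Pooling by exposure set 6 libraries against 6 with time as a term. For ibrutinib exposure (ibrutinib and combination), 0 of the 9 genes passed in edgeR, although 13.7% of all genes did. B2M, at -0.15 ± 0.068 (SE, n = 6; adjusted p = 0.135), was the 1 class I gene with an unadjusted p under 0.05, which 4581 genes had over all. DESeq2 and limma-trend called 0 of the 9. Without the 12 h DMSO library B2M passed, at -0.21 with an adjusted p of 0.0403 (edgeR). Transcript length moved with this contrast (rho = 0.37 over 14316 genes). With the length trend removed B2M was at -0.08 ± 0.053 (adjusted p = 0.302, edgeR). All 9 genes overlapped between exposed and unexposed libraries, where 0.923% of all genes did not.

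For SPX5551 exposure (SPX5551 and combination), PSMB9 rose, 1 of the 9 genes where 7.01% of all genes were called. Its log2 difference was 0.31 ± 0.089 (SE, n = 6; 95% interval 0.12 to 0.50; adjusted p = 0.0452, edgeR). In unscaled CPM the 6 exposed libraries had 31.7 to 37.8 and the 6 others 21.7 to 31.2, without overlap, which 0.673% of all genes and no other class I gene had. After TMM scaling these groups overlapped, with 31.9 CPM in the 4 h combination library and 32.4 CPM in the 4 h DMSO library. NLRC5 (-0.27 ± 0.085, adjusted p = 0.0622) and B2M (0.19 ± 0.068, adjusted p = 0.0878) came next and did not pass. The median over the 9 genes was 0.13.

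The PSMB9 call stood close to the threshold and kept its side of it in 9 of 24 alternative analyses. It was lost without a time term, without the 8 h or the 12 h libraries, and without any 1 of 9 single libraries, which were the ones other than those of DMSO at 4 and 8 h and SPX5551 at 4 h. Length moved with this contrast too (rho = -0.40 over all genes), and with the length trend removed PSMB9 was at 0.17 ± 0.068 (adjusted p = 0.124, edgeR). Under the sample descriptions its sign turned, to -0.11, and with TAP1 and PSMB9 counted as 1 feature the difference was 0.21 ± 0.070 (adjusted p = 0.0686). TAP1 alone was at 0.13 ± 0.072, so the sum was bound to lie below PSMB9 and does not test its call.

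Between times some class I genes passed the test, in no pair of times a larger share than of all genes. TAP1 and TAPBP rose from 4 to 8 h, 2 of 9 genes where 26.6% of all genes were called. TAP1 went from 26.1 ± 2.46 CPM (SD, n = 4) at 4 h to 34.1 ± 4.82 CPM at 8 h, a log2 difference of 0.35 ± 0.085 (SE; adjusted p = 0.00682, edgeR). TAPBP rose by 0.31 ± 0.079 (SE, n = 4; adjusted p = 0.00951, edgeR), from 73.8 ± 2.43 CPM to 93.4 ± 5.60 CPM. Neither gene overlapped between the times, 2 of 9 against 18.7% of all genes. HLA-B had a difference of -0.35 ± 0.13 in the same interval and did not pass (adjusted p = 0.0514).

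From 4 to 12 h, HLA-B fell and TAP1 rose, again 2 of 9 genes where 35.9% of all genes were called. HLA-B went from 22.7 ± 3.86 CPM (SD, n = 4) to 14.6 ± 2.57 CPM, a log2 difference of -0.73 ± 0.13 (SE; 95% interval -1.003 to -0.448; adjusted p = 6.5e-04, edgeR). TAP1 rose by 0.38 ± 0.085 (95% interval 0.20 to 0.56; adjusted p = 0.00297), to 36.2 ± 4.10 CPM. HLA-C was at -0.18 ± 0.097 (adjusted p = 0.154), and the 3 heavy chains summed as 1 feature fell by 0.28 ± 0.096 (adjusted p = 0.0336). HLA-B, TAP1 and TAPBP did not overlap between these times in unscaled CPM, 3 of 9 against 23.6% of all genes. After TMM scaling TAPBP overlapped, with 74.1 CPM in the 12 h combination library and 78.8 CPM in the 4 h DMSO library. The median over the 9 genes was -0.06, with 4 of the 9 estimates above 0.

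From 8 to 12 h, 0 of the 9 genes passed in edgeR, where 9.08% of all genes did, and 0 had groups without overlap, against 7.77% of all genes. HLA-B (-0.37 ± 0.13, adjusted p = 0.0769), HLA-C (-0.26 ± 0.097, adjusted p = 0.0986) and TAPBP (-0.18 ± 0.079, adjusted p = 0.135) had an unadjusted p under 0.05, as did 4198 of the 14412 genes tested. DESeq2 called 1 of the 9, HLA-B at -0.38, and limma-trend called 0. Transcript length moved with this difference (rho = 0.33 over 14316 genes). With the length trend removed, HLA-B was at -0.28 ± 0.11, HLA-C at -0.16 ± 0.075 and TAPBP at -0.11 ± 0.063.

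The calls by time were also made under other settings. HLA-B and TAP1 from 4 to 12 h passed in all 21 alternatives that treat the genes singly, as did TAPBP from 4 to 8 h, while TAP1 from 4 to 8 h passed in 20 and was at 0.29 with an adjusted p of 0.0505 without the 4 h combination library. Summing TAP1 with PSMB9, which share a locus on opposite strands, left differences of 0.14 ± 0.082 from 4 to 8 h (adjusted p = 0.241, edgeR) and 0.14 ± 0.083 from 4 to 12 h (adjusted p = 0.193). Adding a gene of similar level that changes little makes the difference smaller whether or not reads were shared. The sum therefore does not test the TAP1 calls. PSMB9 itself was at -0.08 ± 0.11 and -0.10 ± 0.11 in these intervals, and within libraries the ratio of TAP1 to PSMB9 CPM, not scaled by length, ran from 0.787 to 1.48. Time and any change of the culture with time cannot be told apart.

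**Figure D3:**
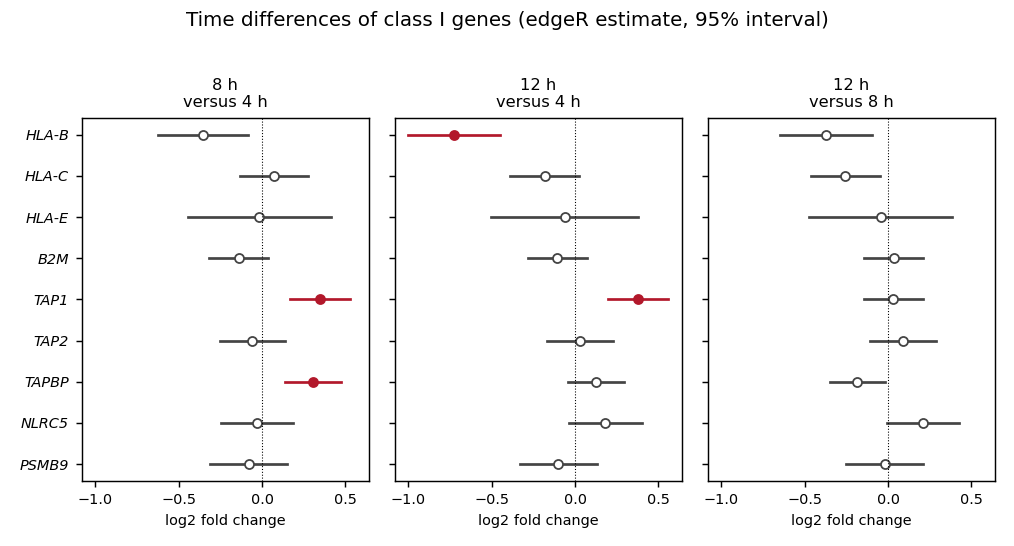
log2 fold change of each class I gene (points) with its 95% interval (lines) between times, from edgeR with n = 4 libraries per time. Filled red points passed at an adjusted p of 0.05, and these are TAP1 and TAPBP at 8 h versus 4 h and TAP1 and HLA-B at 12 h versus 4 h.

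Other genes of the pathway were taken from a list of 35, of which 32 could be tested. It covered further heavy chains, loading factors, proteasome subunits, class I-like partners of B2M, and regulators. HLA-F and HLA-G did not pass the filter. No listed gene passed for ibrutinib or SPX5551 alone versus DMSO or for the interaction in edgeR, where the smallest adjusted p-values were 0.452, 0.598 and 0.67. In these comparisons 5, 3 and 3 listed genes had an unadjusted p under 0.05, where 1588, 1200 and 845 genes had one over all. Under the descriptions, CD1C and IFNGR1 were called in the first of these, CD1C, IFNGR1 and CANX in the second, and CD1C and CANX in the interaction.

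With the combination CD1C fell, a lipid-presenting relative of class I that also pairs with B2M. CD1C stood at 64.9, 57.0 and 52.7 CPM in the DMSO libraries at 4, 8 and 12 h, 63.7, 42.5 and 52.8 CPM with ibrutinib, 59.5, 46.3 and 52.6 CPM with SPX5551, and 36.9, 28.0 and 29.6 CPM with the combination. The 3 combination libraries lay below the other 9. Its log2 difference was -0.97 ± 0.099 from DMSO (SE, n = 3; adjusted p = 6.1e-05, edgeR), -0.79 ± 0.098 from ibrutinib (adjusted p = 0.00163) and -0.81 ± 0.098 from SPX5551 (adjusted p = 4.7e-04).

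IFNGR1, the ligand-binding chain of the interferon-gamma receptor, was the other listed gene to fall in all 3 of these comparisons. It had 192, 227 and 344 CPM in the combination at 4, 8 and 12 h, against 295, 334 and 376 CPM in DMSO. Its log2 differences were -0.51 ± 0.097 versus DMSO (SE, n = 3; adjusted p = 0.00466, edgeR), -0.44 ± 0.097 versus ibrutinib (adjusted p = 0.0202) and -0.61 ± 0.097 versus SPX5551 (adjusted p = 0.00283). The groups overlapped, since the 12 h combination library was above the lowest value of each other treatment. One more listed gene fell in each of 2 comparisons, namely the lectin chaperone calnexin (CANX) versus ibrutinib (-0.41 ± 0.10, adjusted p = 0.0311) and the constitutive proteasome subunit PSMB5 versus SPX5551 (-0.34 ± 0.10, adjusted p = 0.0495). No listed gene rose in these 3 comparisons. Over all genes tested, 9.57%, 5.49% and 7.24% were called in these comparisons, against 2, 3 and 3 of the 32. By the sample descriptions the 3 columns with the low CD1C and IFNGR1 values belong to DMSO. Under them CD1C was at 0.81 and IFNGR1 at 0.61 for the combination versus DMSO (adjusted p = 4.7e-04 and 0.00283, edgeR), and neither passed versus ibrutinib or SPX5551, nor did CANX versus ibrutinib, while PSMB5 versus SPX5551 turned to 0.34 (adjusted p = 0.0403). Further calls were made only under the descriptions. These were PSMB5 versus DMSO (0.345, adjusted p = 0.0495, edgeR) and, versus SPX5551, PSMB6 (0.45), PSME2 (0.37), JAK1 (-0.41), ERAP1 (-0.405) and NFYA (-0.33). The adjusted p of those versus SPX5551 ran from 0.0237 to 0.0494 (edgeR).

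By exposure, 5 of the 32 genes fell with ibrutinib, where 13.7% of all genes were called, and 2 with SPX5551, where 7.01% were, and none rose. These shares lie near those of all genes. Under the descriptions none of these 7 calls was made, and all 7 differences were above 0. With ibrutinib these were CD1C (-0.50 ± 0.10; SE, n = 6; adjusted p = 0.00843, edgeR), IFNGR1 (-0.34 ± 0.094), the proteasome activator subunit PSME2 (-0.28 ± 0.073), PSMB5 (-0.27 ± 0.072) and the constitutive subunit PSMB6, which was the fifth. Transcript length moved with ibrutinib exposure (rho = 0.37 over 14316 genes). In the same order these genes have transcripts of 1435, 2139, 1404, 1294 and 852 bases, and the part of length in their falls was not tested. With SPX5551 exposure the genes that fell were CD1C (-0.47 ± 0.10, adjusted p = 0.0176) and CANX (-0.28 ± 0.076, adjusted p = 0.0378; 4260 bases, where rho with length was -0.40). The combination libraries belong to both exposures. Versus DMSO, CD1C was at -0.19 with ibrutinib alone and -0.16 with SPX5551 alone, against -0.97 with the combination. IFNGR1 was at -0.07 and 0.10 with the single agents, against -0.51 with the combination. Neither gene passed with a single agent. PSMB6 is replaced by PSMB9 in the immunoproteasome, and the PSMB9 to PSMB6 ratio of CPM, not scaled by length, ran from 0.200 to 0.325 over the libraries.

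With time, listed genes were called in both directions. From 4 to 8 h, 4 of the 32 rose and 3 fell (26.6% of all genes were called), from 4 to 12 h 7 rose and 6 fell (35.9%), and from 8 to 12 h 4 rose and 1 fell (9.08%). IRF1, an interferon-response factor that binds class I promoters, had 13.2, 18.7, 24.1 and 17.1 CPM at 4 h in DMSO, ibrutinib, SPX5551 and the combination, and 32.4, 38.1, 34.8 and 43.2 CPM at 8 h. Its log2 difference was 1.003 ± 0.115 from 4 to 8 h (SE, n = 4; adjusted p = 5.4e-05, edgeR) and 0.91 ± 0.12 from 4 to 12 h (adjusted p = 5.1e-05). IRF2, a factor of the same family, rose by 0.87 ± 0.12 (adjusted p = 1.9e-04) and 1.17 ± 0.12 (adjusted p = 1.4e-05). For both factors, every library at 8 or 12 h lay above every library at 4 h.

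Subunits of the factors that bind the X and Y boxes did not go one way. RFX5, a subunit of the X-box complex, rose by 0.50 ± 0.083 from 4 to 12 h (SE, n = 4; adjusted p = 3.4e-04, edgeR) and by 0.41 ± 0.083 from 8 to 12 h (adjusted p = 0.0175). NFYA, a subunit of the CCAAT-binding NF-Y, fell by 0.63 ± 0.091 from 4 to 8 h (adjusted p = 2.2e-04) and by 0.41 ± 0.091 from 4 to 12 h (adjusted p = 0.00268). CREB1 fell by 0.45 ± 0.088 from 4 to 8 h (adjusted p = 0.00179) and rose by 0.32 ± 0.088 from 8 to 12 h (adjusted p = 0.0368). ERAP2, an aminopeptidase that trims peptides in the endoplasmic reticulum, rose by 0.53 ± 0.12 from 4 to 12 h (adjusted p = 0.0029). Its relative ERAP1 rose by 0.49 ± 0.11 from 8 to 12 h (adjusted p = 0.0212), as did JAK1, a kinase of interferon receptors, by 0.34 ± 0.10 (adjusted p = 0.0485). Transcript length moved with the difference from 8 to 12 h (rho = 0.33 over 14316 genes). The transcripts of RFX5, CREB1, ERAP1 and JAK1, which rose there, have 3576, 7650, 5495 and 5047 bases. The part of length in these rises was not tested.

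**Figure D4:**
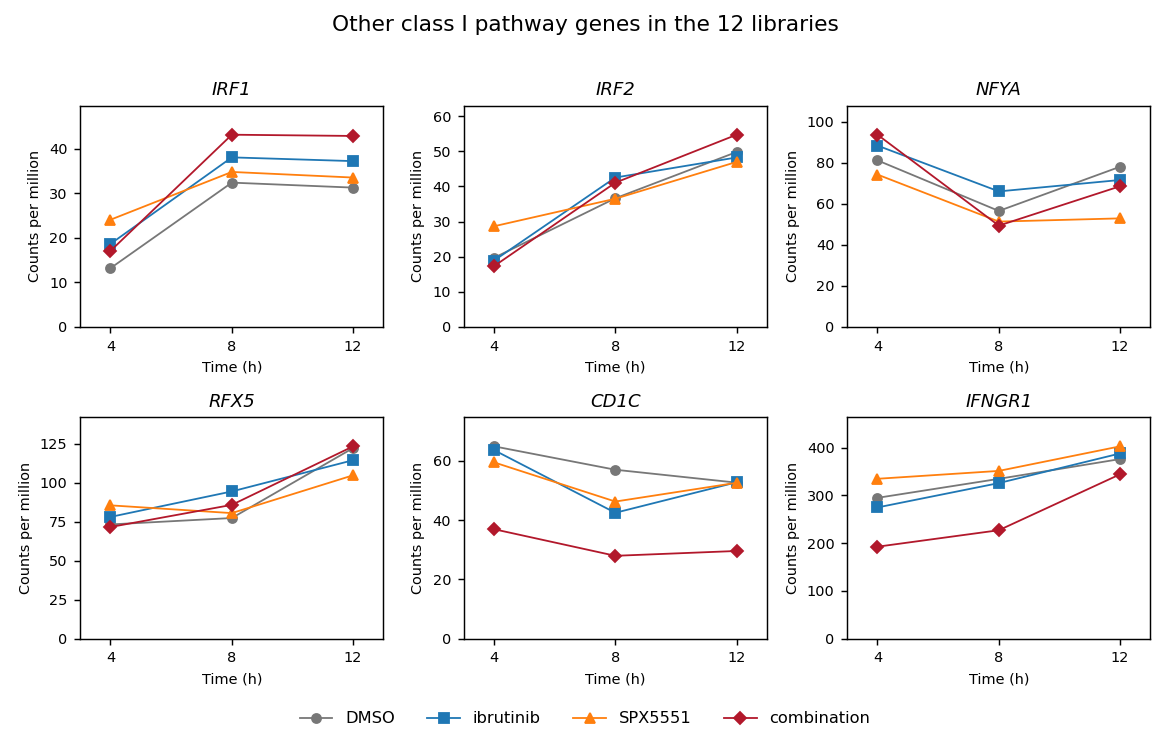
CPM of 6 other class I pathway genes (vertical axes, from 0) against time in hours, 1 point per library and 1 line per treatment. IRF1 and IRF2 lie higher at 8 and 12 h than at 4 h in every treatment, and the 3 combination libraries lie below all others for CD1C.

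Over the 12 libraries the 9 genes did not vary as 1 block. As descriptions over libraries that share depth and length trend, Pearson's r of log2 CPM was 0.86 between B2M and PSMB9, 0.69 between HLA-C and PSMB9, and 0.66 between HLA-B and HLA-C. NLRC5 ran opposite to these 4 genes, with r of -0.78 with HLA-C, -0.73 with B2M, -0.69 with PSMB9 and -0.65 with HLA-B. NLRC5 has the longest transcript of the 9 (6822 bases) and these 4 the shortest (782 to 1705 bases). The part of the length trend in these values of r was not tested. The partner chains TAP1 and TAP2 had r of -0.15. TAP1 and PSMB9 had r of 0.10, and 0.50 after the mean of each time was taken out.

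**Figure D5:**
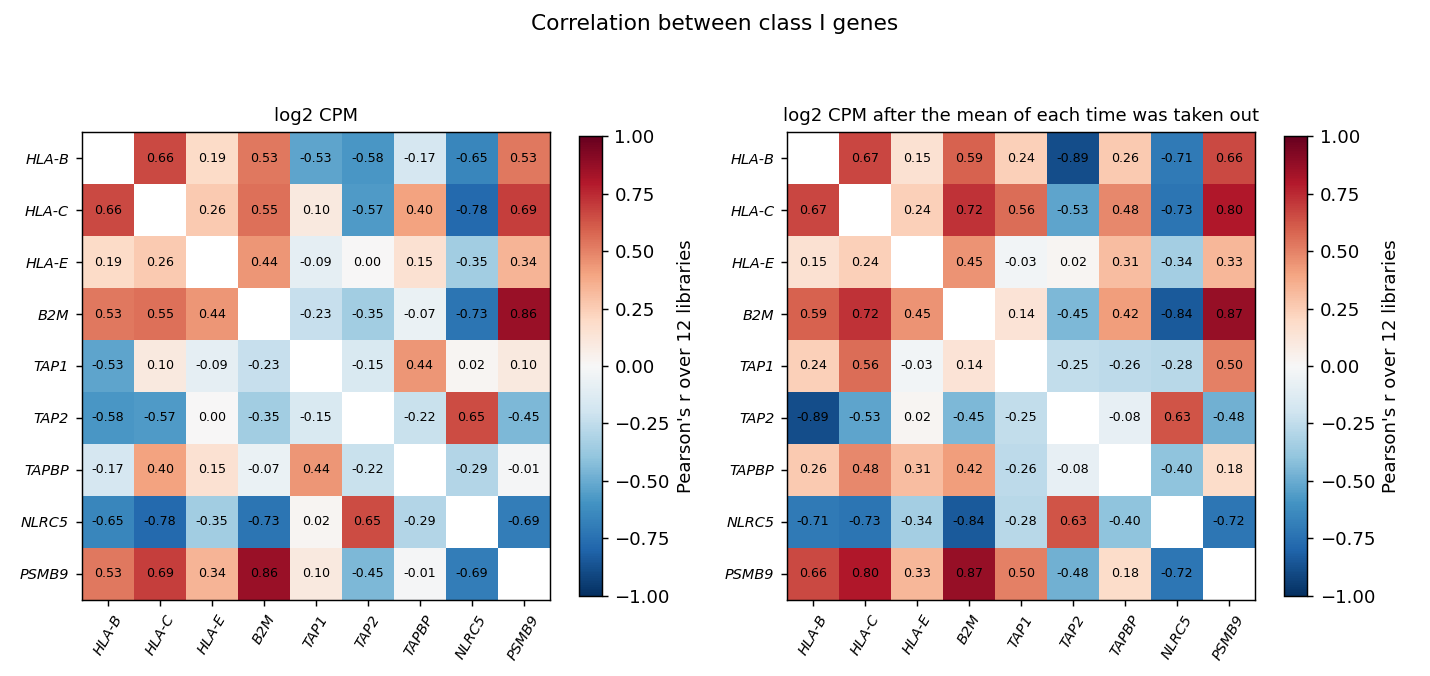
Pearson's r of log2 CPM between pairs of class I genes over the 12 libraries, as measured (left) and after the mean of each time was taken out (right), on a colour scale from -1 to 1. NLRC5 has r below -0.6 with HLA-B, HLA-C, B2M and PSMB9 in both panels, and B2M with PSMB9 has the highest value, 0.86 and 0.87.

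Among 10105 other genes with a mean log2 CPM of at least 2, the mean standardized log2 CPM of the 9 genes was followed most closely by TUSC1 (r = 0.92), RPS2P46 and MRPL51 (both 0.91), TAF10 (0.90) and UCHL3 (0.89), over 12 libraries. The most opposite were NBPF26 (-0.96), PARG (-0.89), NCAPG2 (-0.89), LNX2 (-0.89) and ATE1 (-0.89). Singly, the nearest gene was SYAP1 for HLA-B (0.96), FAM50A for HLA-C (0.94), AL445524.1 for HLA-E (0.79), METTL18 for B2M (0.96) and POLD4 for TAP1 (0.96). It was PM20D2 for TAP2 (0.83), PTGES2 for TAPBP (0.93), MAP3K5 for NLRC5 (0.95) and RPS27L for PSMB9 (0.94). None of these nearest genes belongs to the class I list. All are extremes among 10105 genes over libraries that share a length trend, and they are descriptions only. The mean covers genes that oppose each other, such as HLA-C and NLRC5 (r = -0.78).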

How the data were processed

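Deposited by the authors were whole-number counts per gene and log2 CPM values for 14767 of the genes, with columns named by time and treatment per the file headers. BWA and the build hg38 were used, per the submitters' processing notes. For the counting tool, its strand setting and the annotation, nothing is stated. The labels name the molecule as genomic DNA, while their protocol describes poly(A) RNA libraries from a directional kit. Total counts per library were 19336303 to 28934030. Intervals on single CPM values cover counting error only, since no molecular identifiers mark PCR copies.

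Symbols, positions and transcript lengths came from GENCODE release 29 (93.8% of identifiers had a symbol). Genes were filtered with filterByExpr (14412 left, 99.9% of counts), scaled by TMM and tested with edgeR 4.0.16 (R 4.3.3), using the quasi-likelihood test with treatment and time as additive terms, or time and the exposures, and Benjamini-Hochberg adjustment over all genes at 0.05. SE is the absolute log2 fold change over the square root of F. The test was tried on simulated data. Alternatives were DESeq2 1.42.0, limma 3.58.1 on the deposited log2 values, other scalings, no filter, no time term, only the compared groups, a lowess trend on length removed (span 0.3), pairing by descriptions, leaving out libraries or times, and summed counts. The sum of TAP1 and PSMB9 was added after the gene models were seen.

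Genes and lists were chosen with earlier results of these data known. Named were all 9 genes, up to 4 listed genes past the threshold per comparison with the largest change, the 5 genes most like and most opposite to their mean, and the nearest gene of each. PSMB6 and NFYA from 4 to 12 h fall outside this rule, as do the further calls named under the descriptions, and were named after their values were seen. One listed gene is not reported here.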

Additional observations from a re-analysis of the deposited data

Results flagged for a closer look

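In 7 of 63 groups of 4 or 6 libraries, a class I gene had 1 library apart from the rest by Dixon's test, where chance gives about 5% of groups, and the groups share libraries. HLA-C had 116 CPM in the 8 h combination library, apart from the other 5 libraries with ibrutinib (at most 83.5 CPM) and from the other 5 with SPX5551 (at most 89.9 CPM). HLA-E had 2.23 CPM in the 4 h ibrutinib library, below the others at 4 h, and 3.67 CPM in the 8 h DMSO library, above the others without ibrutinib. NLRC5 had 26.4 CPM in the 12 h DMSO library, above the others without ibrutinib, and 28.2 CPM in the 12 h combination library, above the others with SPX5551. PSMB9 had 23.7 CPM in the 12 h DMSO library, below the others without ibrutinib.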

How the results depend on the processing

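Of 260 recounts of class I genes called, in 11 comparisons and up to 25 settings, 222 stayed within 1.5 times the count reported. The others were these. For the combination versus ibrutinib (0 called), DESeq2 called 2, no filter 2, library size alone 1 and leaving out the 12 h libraries 2, and single libraries left out gave 0 to 2 (PSMB9, NLRC5 or both, without the 12 h library of SPX5551, DMSO or the combination). For SPX5551 exposure (1 called), DESeq2, library size alone and no filter each called 2, while no time term, length trend removed, the descriptions, leaving out 8 h, leaving out 12 h, and dropping both the 8 h ibrutinib and the 12 h SPX5551 library each called 0. Single libraries left out gave 0 to 2 there, and 0 to 1 for ibrutinib exposure. Under the descriptions, the combination versus SPX5551 called 3 and the interaction 1. From 4 to 8 h (2 called), removing the length trend called 4, adding HLA-B and B2M, and single libraries left out gave 1 to 3 (1 without the 4 h combination library). With the same pair of libraries dropped, 4 were called from 4 to 12 h and 4 from 8 to 12 h. From 8 to 12 h (0 called), DESeq2 and no filter called 1, and single libraries gave 0 to 1. Of the 72 single-gene differences between treatments or exposures, 41 changed sign under the descriptions, and 3 of these passed the test under one of the pairings, namely B2M (0.34) and NLRC5 (-0.40) for the combination versus SPX5551 and PSMB9 (-0.11) for SPX5551 exposure. The cause of these shifts was not tested.

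Counts over all genes moved more. Ibrutinib versus DMSO called 15, from 0 without a time term to 1379 under the descriptions. SPX5551 versus DMSO called 0, 112 with no filter and 791 under the descriptions. The combination called 1379 versus DMSO (27 without a time term, 2598 with only those groups), 791 versus ibrutinib (0 to 1643) and 1043 versus SPX5551 (5 to 1896). The interaction called 0, up to 973 under the descriptions. Exposure counts went down to 29 for ibrutinib and 0 for SPX5551 without a time term, from 1978 and 1011. From 8 to 12 h 1308 genes were called, and 27 without the 8 h DMSO library to 4913 with the same pair dropped. Each replicate of a treatment is a time point, and the time term of the model matched libraries of the same time across treatments. No further paired analysis was run. HLA-E, with 45 to 74 counts per library, has the widest intervals of the 9 genes.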
